A study of Mus musculus with 2 samples.

Results

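The 10 genes described here are miRNA genes known for their enrichment in neurons, namely Mir137, Mir128-1, Mir128-2, Mir129-1, Mir129-2, Mir138-1, Mir138-2, Mir153, Mir218-1 and Mir218-2. They were taken by name from the 2202 miRNA genes counted in the adrenal gland, as candidates for marking the chromaffin cells and nerve fibres of the adrenal medulla. All 10 were found by their GENCODE M21 identifiers. Small RNA was sequenced from the adrenal gland of adult male mice aged 8 to 10 months, of a strain given as 5xFAD/CAST, and the RNA size range was below 30 nucleotides. The strain name joins that of a transgenic Alzheimer's disease model, whose transgenes are driven in neurons by the Thy1 promoter, with CAST, an inbred strain derived from wild mice, and the labels do not say whether these animals carried the transgene. There was 1 group with 2 libraries, labelled biological replicates 1 and 2, which carried different biosample records and a common donor record. The labels do not state that the 2 came from separate animals, so the spread between them may be partly technical. With 1 group there was no contrast between conditions, and the values below are levels, their spread and their order.

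A miRNA gene is transcribed as a hairpin that is cut to a short duplex, and either arm of the duplex, 5p or 3p, can be loaded into an Argonaute protein. The loaded arm pairs with target mRNAs mainly through its seed, bases 2 to 8, and lowers their translation and stability. The adrenal medulla is built from chromaffin cells, which arise from the neural crest as sympathetic neurons do, store catecholamines in dense-core vesicles and are innervated by preganglionic nerve fibres. The surrounding cortex makes steroids. Among the members, miR-137 is known for its part in neuronal maturation, miR-128 for restraining neuronal excitability, miR-129 and miR-138 for local control at synapses and dendritic spines, miR-153 for targeting α-synuclein, and miR-218 for its abundance in motor neurons.

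The members fall into 6 families by sequence. The arm each family is best known for is printed 5′ to 3′ from RefSeq (GRCm38.p6) with the seed in capitals, because these arms decide which genes could be counted apart.
miR-137-3p: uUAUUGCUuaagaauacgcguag
miR-153-3p: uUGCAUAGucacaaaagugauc
miR-129-5p: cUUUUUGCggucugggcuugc
miR-138-5p: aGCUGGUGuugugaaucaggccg
miR-128-3p: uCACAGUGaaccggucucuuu
miR-218-5p: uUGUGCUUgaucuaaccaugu
These 6 seeds differed from one another. In the RefSeq table of mouse mature miRNAs, the seeds of miR-137-3p, miR-153-3p, miR-129-5p, miR-138-5p and miR-128-3p occurred in no mature miRNA of another name. The seed of miR-218-5p also occurred in miR-7002-3p, and its gene Mir7002 had 1 read in replicate 2 and 1 read in replicate 1.

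Mir137 and Mir153 were the only members without a near-identical copy, and the other 8 form 4 pairs in which the best-known arm is the same in both copies. Among all GENCODE M21 miRNA hairpins, read on their own strand, the longest run of bases that Mir137 shared with another gene was 11 bases. That of Mir153 was 10 bases. On either strand, neither shared 20 bases with another gene. Each paired gene shared 20 bases or more with its partner. The hairpins of the pairs are printed below with the longest run shared within each pair in capitals, to show how much of each gene could be told from its copy.
Mir129-2: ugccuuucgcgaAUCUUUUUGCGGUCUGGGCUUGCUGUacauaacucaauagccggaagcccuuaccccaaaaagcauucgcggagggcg
Mir129-1: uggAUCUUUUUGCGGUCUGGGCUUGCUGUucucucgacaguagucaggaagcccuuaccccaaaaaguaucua
Mir138-1: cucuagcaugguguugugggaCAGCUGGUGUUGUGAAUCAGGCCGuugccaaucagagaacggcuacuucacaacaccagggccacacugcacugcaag
Mir138-2: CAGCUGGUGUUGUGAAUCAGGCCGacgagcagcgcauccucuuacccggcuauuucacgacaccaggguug
Mir128-1: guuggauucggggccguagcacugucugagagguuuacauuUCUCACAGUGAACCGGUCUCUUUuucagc
Mir128-2: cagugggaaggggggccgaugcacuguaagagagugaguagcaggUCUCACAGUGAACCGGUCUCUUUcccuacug
Mir218-2: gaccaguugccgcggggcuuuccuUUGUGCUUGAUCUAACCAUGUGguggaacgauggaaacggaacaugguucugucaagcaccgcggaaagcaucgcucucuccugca
Mir218-1: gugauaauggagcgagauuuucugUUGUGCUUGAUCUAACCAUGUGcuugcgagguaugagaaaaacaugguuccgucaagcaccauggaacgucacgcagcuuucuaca
The shared run was 26 bases for the Mir129 pair and held all of miR-129-5p. It was 24 bases for the Mir138 pair and held miR-138-5p, 23 bases for the Mir128 pair and held miR-128-3p, and 22 bases for the Mir218 pair and held miR-218-5p. Reads that mapped to several places were assigned to no gene in these tables. A read of a shared arm that stayed within the shared run therefore added to the count of neither copy. The counts of these 8 genes are lower limits on their expression only if no read of one copy was counted at the other. Whether that occurred was not tested.

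The opposite arm differed within each pair and occurred in only 1 annotated hairpin, so its reads could be assigned. These arms are printed with their seeds in capitals, since the counts of the paired genes rest on them and on reads that ran past the shared bases.
miR-129-2-3p: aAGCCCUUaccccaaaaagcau
miR-138-1-3p: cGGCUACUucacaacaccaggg
miR-138-2-3p: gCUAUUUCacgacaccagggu
miR-128-1-5p: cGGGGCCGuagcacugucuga
miR-128-2-5p: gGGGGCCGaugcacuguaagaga
miR-218-1-3p: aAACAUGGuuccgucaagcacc
miR-218-2-3p: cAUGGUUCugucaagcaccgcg
RefSeq lists no 3p arm for Mir129-1. Its 3′ side shared a second run of 21 bases with Mir129-2, printed here in capitals as it stands in both hairpins.
Mir129 pair, 3′ side: GGAAGCCCUUACCCCAAAAAG
The miR-129-2-3p arm extends past this run by cau, where Mir129-1 has uau. Within this arm, only the first of these bases separates the copies. In the other pairs the second longest shared run was 10 bases for Mir218, 9 bases for Mir138 and 7 bases for Mir128. The miR-128-1-5p and miR-128-2-5p arms share their seed, whereas the 3p arms within the Mir138 and Mir218 pairs have different seeds.

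Of the 10 genes, 5 lie in introns of protein-coding genes on the same strand of GRCm38 (mm10). Mir153 (ENSMUSG00000065538.1, chr12:117250817-117250885) lies in an intron of Ptprn2, which encodes a protein of dense-core vesicle membranes. Mir218-1 (ENSMUSG00000065603.1, chr5:48223942-48224051) lies in an intron of Slit2 and Mir218-2 (ENSMUSG00000065583.1, chr11:35616816-35616925) in an intron of Slit3, both of which encode secreted axon guidance proteins. Mir128-1 (ENSMUSG00000065520.2, chr1:128202361-128202430) lies in an intron of R3hdm1, and Mir128-2 (ENSMUSG00000065441.2, chr9:112118636-112118711, minus strand) in an intron of Arpp21, which encodes a cAMP-regulated phosphoprotein of neurons. Only miRNA genes were counted, so the levels of these hosts were not measured.

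The other 5 overlap noncoding genes. Mir137 (ENSMUSG00000065569.2, chr3:118433857-118433929) overlaps an exon of Gm26871, and Mir129-1 (ENSMUSG00000065469.1, chr6:29022619-29022691) an exon of Gm3294. Mir138-1 (ENSMUSG00000065414.1, chr9:122682876-122682974) overlaps an exon of the transcribed pseudogene Gm47135, and Mir138-2 (ENSMUSG00000065512.3, chr8:94324311-94324381) an exon of C78859. Mir129-2 (ENSMUSG00000065511.1, chr2:94241364-94241453, minus strand) lies in an intron of Mir670hg, and Mir129b, a miRNA gene annotated at chr2:94241378-94241442 on the opposite strand, overlaps it.

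All 10 genes were detected, with Mir137 far above the rest in assigned reads. Levels are given as CPM, the sense reads of a gene per 1000000 sense reads of all miRNA genes, without scaling for length, since reads are whole mature RNAs. The denominators were 3084602 sense reads in replicate 2 and 6783227 in replicate 1, and a count of 0 would allow up to 3 reads, or 0.973 and 0.442 CPM in these libraries. Every member exceeded 2 CPM in both libraries, beside 15.2% of the 2202 annotated genes, most of which had no read in either library. The members were chosen with earlier results of these data known, so their detection is a description. The median of the members' mean CPM was 38.2, against 124.9 over all genes above 2 CPM in both libraries. Together the members held 0.159% of sense miRNA reads in replicate 2 (Wilson 95% interval 0.155 to 0.164) and 0.115% in replicate 1 (0.112 to 0.117), a mean of 0.137% ± 0.0315 (SD, n = 2). Intervals cover counting error only, since they are computed from read counts. They could be too narrow even for that, because PCR copies of a molecule cannot be told from separate molecules. In whole glands, fewer cells of a type and less RNA per cell cannot be told apart.

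Mir137 had 3261 reads or 1057 CPM in replicate 2 and 4835 reads or 713 CPM in replicate 1. Its mean was 885 ± 244 CPM (SD, n = 2), at rank 74 of all miRNA genes by assigned reads. Multimapping reads were left out of every gene and of the CPM denominators. Genes with near-identical copies may therefore rank too low against Mir137. Mir137 supplied 66.3% of the members' reads in replicate 2 (65.0 to 67.6) and 62.1% in replicate 1 (61.0 to 63.1). Mir137 has no near-identical copy, unlike the 8 paired genes, and the part of unassigned reads in this lead was not tested. Mir153 is the comparison free of this limit. It had 275 reads or 89.2 CPM in replicate 2 and 282 reads or 41.6 CPM in replicate 1, a mean of 65.4 ± 33.6 CPM at rank 192. Mir137 exceeded Mir153 by 11.9-fold in replicate 2 (exact binomial 95% interval 10.5 to 13.5) and by 17.1-fold in replicate 1 (15.2 to 19.4).

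Of the paired genes, Mir129-2 and Mir138-1 had the highest means. Mir129-2 had 743 reads or 241 CPM in replicate 2 and 1348 reads or 199 CPM in replicate 1, a mean of 219.8 ± 29.8 CPM at rank 132. Its copy Mir129-1 had 99 reads or 32.1 CPM in replicate 2 and 302 reads or 44.5 CPM in replicate 1, a mean of 38.3 ± 8.79 CPM at rank 215. Mir129-2 was thus the only member besides Mir137 with a mean of at least 100 CPM, a level reached by 173 genes in all. Mir138-1 had 185 reads or 60.0 CPM in replicate 2 and 623 reads or 91.8 CPM in replicate 1, a mean of 75.9 ± 22.5 CPM at rank 182. Mir138-2 had 62 reads or 20.1 CPM in replicate 2 and 152 reads or 22.4 CPM in replicate 1, a mean of 21.3 ± 1.63 CPM at rank 239. In both pairs the copies kept apart in both libraries.

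Of the 4 Mir128 and Mir218 genes, Mir128-2 and Mir218-1 had the lowest means of all members, both below 10 CPM. Mir128-1 had 181 reads or 58.7 CPM in replicate 2 and 120 reads or 17.7 CPM in replicate 1, a mean of 38.2 ± 29.0 CPM at rank 216. Mir128-2 had 19 reads or 6.16 CPM in replicate 2 (exact Poisson 95% interval 3.71 to 9.62) and 14 reads or 2.06 CPM in replicate 1 (1.13 to 3.46), a mean of 4.11 ± 2.90 CPM at rank 311. The lower bound of its replicate 1 interval was below 2 CPM, so its detection there rested on a few reads. Mir218-2 had 45 reads or 14.6 CPM in replicate 2 and 92 reads or 13.6 CPM in replicate 1, a mean of 14.1 ± 0.725 CPM at rank 264. Mir218-1 had 49 reads or 15.9 CPM in replicate 2 (11.8 to 21.001) and 23 reads or 3.39 CPM in replicate 1 (2.15 to 5.09), a mean of 9.64 ± 8.84 CPM at rank 282. miR-128-3p and miR-218-5p, the arms these families are best known for, lie within the shared runs. Their reads could be assigned only where they ran past the shared bases, so these CPM do not show the level of either mature miRNA.

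**Figure D1:**
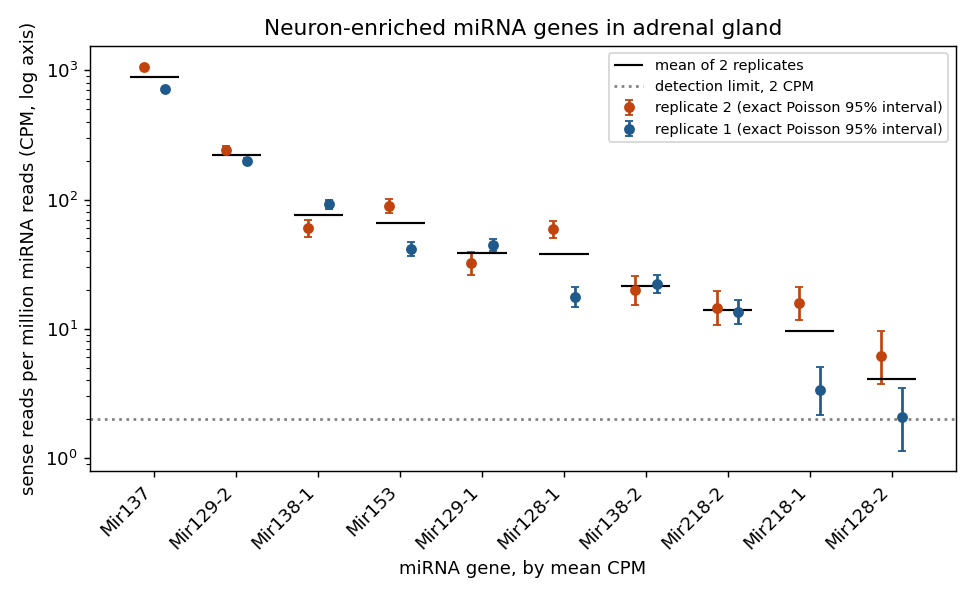
Level of each of the 10 genes in CPM on a log axis, with replicate 2 at the left and replicate 1 at the right of each gene, exact Poisson 95% intervals and the mean as a bar. Mir137 lies at 1057 and 713 CPM, Mir129-2 at 241 and 199 CPM, and every other gene is below 100 CPM in both libraries and above the dotted detection limit of 2 CPM.

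By assigned reads, the order of the members was clear at the top and unclear in the middle. A pair of genes was called ordered where they ranked the same way in both libraries and lay further apart in each, in log2, than either gene differed between the libraries, a rule that covers the spread of these 2 libraries only. By it, 30 of the 45 pairs were ordered. Mir137 stood above all 9 others and Mir129-2 above the remaining 8. The counts of the paired genes leave out multimapping reads, so their places below Mir137 or Mir129-2 are an order of assigned reads only. Mir153, which has no near-identical copy, is the exception. Of the 9 neighbouring pairs in the list by mean CPM, 3 were ordered, namely Mir137 over Mir129-2, Mir129-2 over Mir138-1 and Mir138-2 over Mir218-2. Mir138-1 and Mir153, Mir153 and Mir129-1, Mir129-1 and Mir128-1, Mir128-1 and Mir138-2, and Mir218-2 and Mir218-1 each ranked in opposite ways in the 2 libraries. Mir218-1 was above Mir128-2 in both libraries, but by less than the replicate difference.

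Within pairs, 3 of the 4 had a leading copy in both libraries. These ratios compare reads within a library and do not depend on its scaling, but they compare the reads that could be assigned to each copy and not the output of each locus. Mir128-1, in R3hdm1, exceeded Mir128-2, in Arpp21, by 9.53-fold in replicate 2 (exact binomial 95% interval 5.93 to 16.2) and by 8.57-fold in replicate 1 (4.91 to 16.2). Mir129-2 exceeded Mir129-1 by 7.51-fold in replicate 2 (6.08 to 9.35) and by 4.46-fold in replicate 1 (3.94 to 5.07). Mir138-1 exceeded Mir138-2 by 2.98-fold in replicate 2 (2.23 to 4.05) and by 4.10-fold in replicate 1 (3.43 to 4.93). These 3 pairs were ordered beyond the replicate spread.

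The Mir218 pair was the exception. Mir218-2, in Slit3, had 0.918 of the reads of Mir218-1, in Slit2, in replicate 2 (0.599 to 1.41) and 4.00 times its reads in replicate 1 (2.51 to 6.62). The counting intervals of the libraries did not overlap, and the levels differed at Mir218-1, with 15.9 CPM in replicate 2 and 3.39 CPM in replicate 1, more than at Mir218-2, with 14.6 and 13.6 CPM. Which copy leads was not settled by these data.

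**Figure D2:**
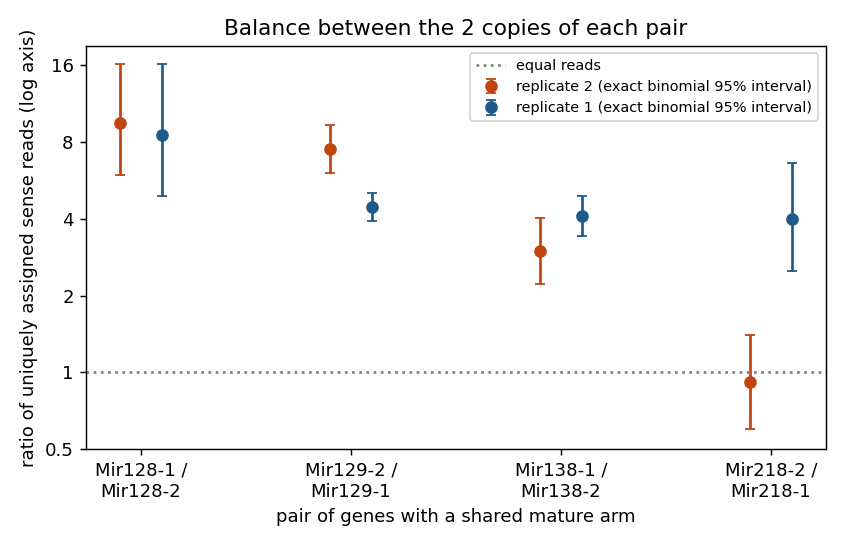
Ratio of assigned sense reads between the copies of each pair on a log axis, with replicate 2 left of replicate 1 and exact binomial 95% intervals. The Mir128, Mir129 and Mir138 ratios lie above 1 in both libraries, and the Mir218 ratio is 0.918 in replicate 2 and 4.00 in replicate 1.

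The level of Mir129-2 depended on counting by strand. In the deposited column for both strands together it had 0 reads in replicate 2 and 1 read in replicate 1, against 743 and 1348 in the sense column. The overlapping gene Mir129b had 0 sense reads in both libraries, and its opposite-strand column held 743 reads in replicate 2 and 1347 in replicate 1. The reads of this locus thus lay on the strand of Mir129-2, and a count without strand leaves them unassigned as ambiguous. The other 9 members had the same count in both columns. All 10 had 0 reads in the opposite-strand column of both libraries, which includes Mir153, where the antisense transcript Gm5441 is annotated on the other strand.

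Replicate 2 was at least 2-fold higher than replicate 1 for Mir153 and Mir128-1. Differences are log2(CPM + 1) of replicate 2 minus replicate 1 and were called at 1 or more in either direction among genes with a mean of at least 10 CPM. This compares 2 libraries and not conditions, so no p-value is given. The ratios beside them are of CPM without the added 1 and are therefore further from 1. Mir128-1 had a log2 difference of 1.67 and a CPM ratio of 3.32 (exact binomial 95% interval 2.62 to 4.21), and Mir153 had a log2 difference of 1.08 and a CPM ratio of 2.14 (1.81 to 2.54). Of the 8 members that passed the limit of 10 CPM, these 2 were called higher in replicate 2 and 0 lower, beside 10.7% of the 280 genes that passed, with 6.07% of the 280 higher and 4.64% lower. With so few members, this count is a description. The split of the 280 depended on the scaling, with 17 higher and 13 lower here, 12 and 17 under TMM, 8 and 17 under DESeq2 size factors, and 9 and 16 with all reads as the denominator. Mir153 fell to a log2 difference of 0.98 under TMM, 0.95 under DESeq2 size factors and 0.96 with all reads as the denominator, and was then not called.

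The other members varied in both directions. Mir218-1 and Mir128-2 were both below the limit of 10 CPM. Mir218-1 had a log2 difference of 1.94 and a CPM ratio of 4.68 (2.80 to 8.06), and Mir128-2 had a log2 difference of 1.22 and a CPM ratio of 2.98 (1.42 to 6.43). Both Mir128 genes thus had higher values in replicate 2, whereas the Mir218 genes were unlike each other, with 0.10 for Mir218-2. Mir137 had a log2 difference of 0.57 and Mir129-2 one of 0.28. Mir138-1 had −0.61, Mir129-1 −0.46 and Mir138-2 −0.15, so both Mir138 genes had lower values in replicate 2. Over the 8 members that passed, the median was 0.19, against 0.01 over the 280 genes. Under DESeq2 size factors the median of the 280 was −0.12, and Mir218-2 then had −0.03.

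**Figure D3:**
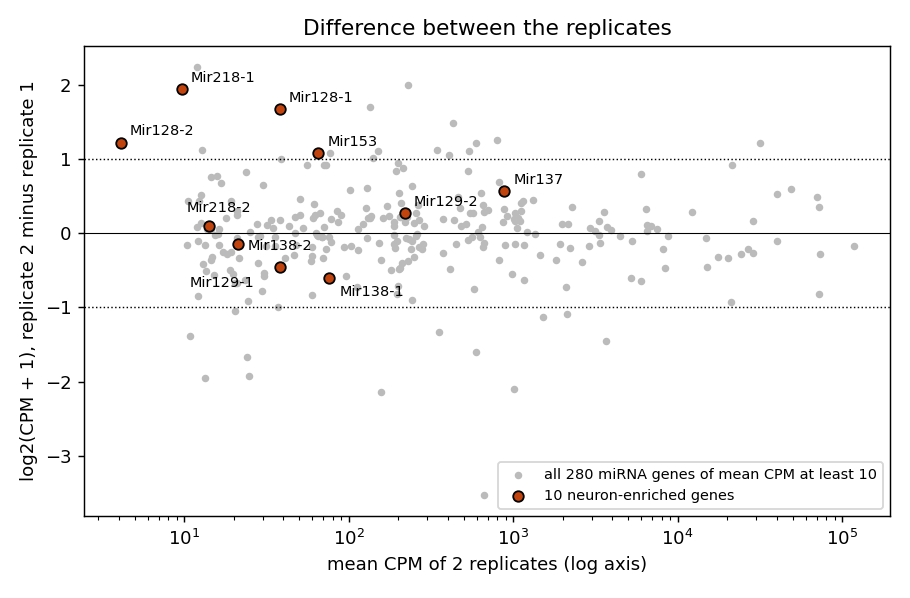
Log2(CPM + 1) of replicate 2 minus replicate 1 against mean CPM on a log axis for the 280 genes of at least 10 CPM in grey and the 10 members in red. Mir128-1 and Mir153 lie above the dotted line at 1, as do Mir218-1 and Mir128-2, whose means are below 10 CPM, and the other 6 members lie between the dotted lines.

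Lists of other cell types gave context for these differences. The neuroendocrine list of 7 genes, led by Mir375, held 8.77% of sense miRNA reads in replicate 2 and 6.39% in replicate 1. The log2 differences were 0.49 for Mir375, 0.95 for Mir182, −0.10 for Mir7-1 and −0.04 for Mir7b. The glial list of 4 genes held 0.0281% in replicate 2 and 0.0309% in replicate 1. The liver marker Mir122 had 57.7 CPM in replicate 2 and 257 CPM in replicate 1. The share of medulla, of nerve or of other tissue in each sample was not measured, and its part in the differences of Mir153, Mir128-1 and Mir218-1 was not tested.

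Mir137 stood well below the leading neuroendocrine genes. Mir375, a miRNA of endocrine cells and their secretion, had 82443 CPM in replicate 2 and 58718 CPM in replicate 1, which was 78.0-fold and 82.4-fold the level of Mir137. Mir7b had 4423 and 4535 CPM in replicates 2 and 1, or 4.18-fold and 6.36-fold the level of Mir137. Mir7-1 reached a mean of 241.7 ± 11.7 CPM and Mir182 one of 199.7 ± 90.4 CPM (SD, n = 2 each), and both were below Mir137 in both libraries by more than the replicate spread. Mir7-1 shares 20 bases or more with Mir7-2, so its count can leave out reads that mapped to both.

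A second list of 17 neuron-associated miRNA genes held 0.623% of sense reads in replicate 2 and 0.629% in replicate 1. Of these, 9 were detected above 2 CPM in both libraries and 2 exceeded Mir137 by more than the replicate spread. These were Mir433 at 2933 ± 102 CPM and Mir134 at 1934 ± 138 CPM, which are processed from the imprinted Dlk1-Dio3 region and are not confined to neurons. Mir485, from the same region, had 559 ± 13.4 CPM, and Mir132, which responds to cAMP signalling, had 531 ± 23.7 CPM. The 3 Mir124a genes had 0 reads in both libraries, and of the 3 Mir9 genes only Mir9-3 had any, at 1 read in each. Mir124a and Mir9 genes share 20 bases or more with their own copies, so these counts set no upper limit on miR-124 or miR-9, which are among the defining miRNAs of neurons.

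Among markers of glia and muscle, Mir338 had 266.9 ± 24.5 CPM, Mir219a-1 21.03 ± 3.27 CPM and Mir219a-2 6.37 ± 1.08 CPM. Both Mir219a genes share 20 bases or more with another gene, as does Mir219b, which had 2 reads in replicate 2 and 0 in replicate 1. Of the 6 muscle genes, 5 had 0 reads in both libraries and all 5 share 20 bases or more with a copy. Mir206, the sixth, had 3.57 CPM in replicate 2 and 3.69 CPM in replicate 1. Mir206 was thus the single muscle gene with a full count. It lay below every member in replicate 2, and above Mir128-2 and Mir218-1 only in replicate 1.

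By assigned reads, the genes nearest in level to Mir137 were of unrelated families. Genes with near-identical copies could lie nearer by their full level, since their multimapping reads were left out. The 3 just above it by mean CPM were Mir15a at 988 ± 264, Mir181c at 918 ± 107 and Mir154 at 895 ± 71.4 CPM. The 3 just below it were Mir341 at 877 ± 142, Mir149 at 861 ± 67.1 and Mir598 at 823 ± 275 CPM. None of these 6 was ordered against Mir137 beyond the replicate spread. With 2 samples, likeness of pattern across samples could not be measured, and nearness in rank of level was used in its place.

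**Figure D4:**
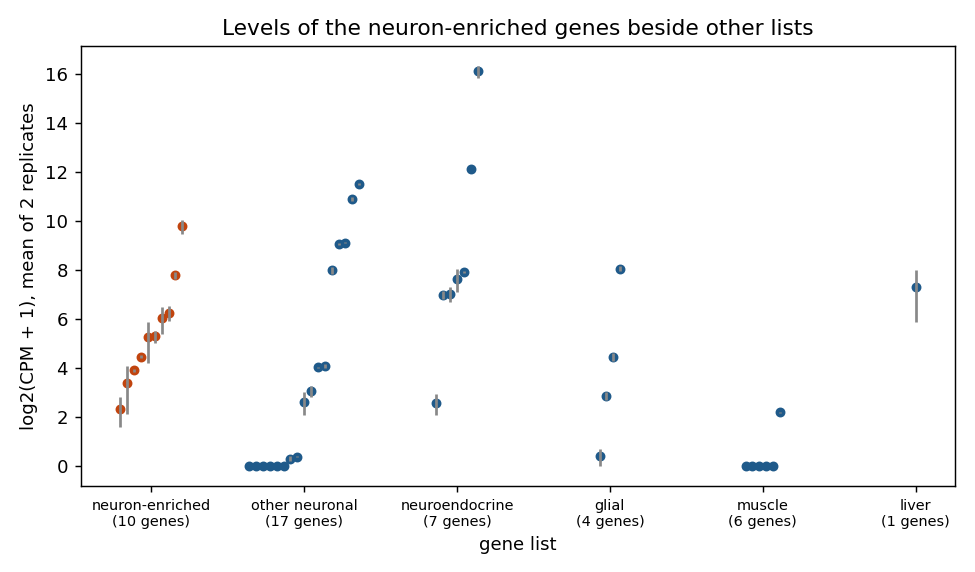
Level of each gene as log2(CPM + 1), mean of 2 replicates, for the 10 neuron-enriched genes and 5 other lists, with grey lines joining the replicates. Mir375 at 70580 CPM and Mir7b at 4479 CPM lead the neuroendocrine list, Mir137 leads the neuron-enriched genes at 885 CPM, and 6 other neuronal genes and 5 muscle genes sit at 0.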

How the data were processed

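Per the deposited notes, the authors counted reads per miRNA gene of GENCODE M21 on mm10, with 1 table of raw read counts per library. The 3 count columns carry no header. They open with 4 lines of reads that were given to no gene, as STAR gene counts do, and column 2 was taken as both strands, column 3 as sense and column 4 as opposite strand. Which alignment software and settings were used is not stated in the sources used here. The reference is of another strain, so a CAST variant in a mature sequence could lower a count.

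Counts were scaled to CPM of sense miRNA reads. The tables held 6482170 reads in replicate 2 and 13209343 in replicate 1, of which 47.6% and 51.4% were sense miRNA reads and 32.1% and 30.3% multimapping. The mapping lines stayed out of library sizes. All 2202 identifiers matched GENCODE M21. Mature and hairpin sequences were RefSeq's for GRCm38.p6. All 10 member hairpins matched and were identical to GENCODE's. Shared runs were exact matches of 20 bases or more between annotated hairpins at different loci, on either strand. The lengths of the longest runs were sought with each hairpin read on its own strand only. No genome sequence was used, so copies outside annotated hairpins were not searched.

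No test between conditions was possible with 1 group. Alternatives were TMM (edgeR 4.0.16), DESeq2 1.42.0 size factors, scaling to all reads, the both-strand column, other limits and pseudocounts, and each replicate left out. The difference and scaling steps were tested on simulated data with counting error only, which do not cover further spread between libraries. All members are named, with up to 4 genes of each other list by mean CPM, the 3 genes on either side of Mir137 in level, and any other gene named beside a count or a difference was chosen after its values were seen. The members and lists were chosen with earlier results of these data known. Python 3.11.15, scipy 1.17.1 and R 4.3.3 were used.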

Additional observations from a re-analysis of the deposited data

Results flagged for a closer look

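The opposite-strand column, which the levels do not use, held 743 reads in replicate 2 and 1347 reads in replicate 1 at Mir129b, above the 3 reads that a count of 0 allows. The same locus had 743 and 1348 sense reads at Mir129-2 in replicates 2 and 1, and Mir129b had 0 sense reads in both. The reads flagged at Mir129b thus lay on the strand of Mir129-2, which overlaps it, and are not a separate signal.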

How the results depend on the processing

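With all reads of the tables as the denominator, unmapped and multimapping reads included, the summed share of the 10 genes was 0.0674% and the levels were 435 CPM for Mir137, 108 for Mir129-2, 37.9 for Mir138-1, 19.1 for Mir129-1, 10.5 for Mir138-2 and 6.95 for Mir218-2. With the column for both strands, Mir129-2 was at 0.0846 CPM, Mir138-2 at 23.9 CPM and Mir218-2 at 15.8 CPM. The count of members differing at least 2-fold between the replicates was 2 and became 1 (Mir128-1) under TMM, under DESeq2 size factors and with all reads as the denominator. It was 3 with the column for both strands, where Mir218-1 passed the limit of 10 CPM with a log2 difference of 1.91, 4 with no limit on mean CPM, which added Mir218-1 and Mir128-2, and 0 with a limit of 100 CPM, which only Mir137 and Mir129-2 pass. Detection above 2 CPM held for 10 members under TMM and DESeq2 size factors and in each replicate alone, for 9 with both strands and for 8 with all reads as the denominator. Pairs ordered beyond the spread numbered 30 to 33 of 45 under the 4 scalings or columns tried. Leaving out a replicate gave summed shares from 0.115% to 0.159%. No paired analysis was possible because there is 1 group. Depth limits Mir128-2 and Mir218-1 most, with 14 and 23 reads in replicate 1.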
